A study of Mus musculus with 2 samples.

Results

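The 9 enzymes of serine synthesis and folate-bound carbon transfer considered here are Phgdh, Psat1, Psph, Shmt1, Shmt2, Mthfd1, Mthfd2, Mthfd1l and Aldh1l2, taken as a group by their place in the pathway. The group was chosen with earlier results of these data known, so the shares set beside it below are descriptive only. Every probe set annotated to exactly 1 of these genes was used, which gave 22 of the 45101 probe sets and 9 of the 18194 genes with a probe set of their own. The tested sample was RNA of wild type C57BL6 peritoneal macrophages of 8-week-old male mice after 12 h with 100 ng/ml CSF1, and the control was RNA of such cells kept for 12 h without it. In both groups thioglycolate medium (0.2 ml at 10%) had been injected to draw macrophages into the peritoneal cavity, the cells had been recovered by lavage 1 week later, and they had been grown in serum to 80% confluence. CSF1 (macrophage colony-stimulating factor) signals through the receptor Csf1r and keeps macrophages alive and dividing. Each group had 1 Affymetrix Mouse Genome 430 2.0 array, so no difference below has a replicate check and no test between the groups could be run, and the labels do not say whether cells of several mice were pooled.

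Serine is made from the glycolytic intermediate phosphoglycerate in 3 steps, by the dehydrogenase Phgdh, the aminotransferase Psat1 and the phosphatase Psph. Serine hydroxymethyltransferases then move a carbon of serine onto tetrahydrofolate and leave glycine, Shmt2 mainly in mitochondria and Shmt1 in the cytosol. Mitochondrial Mthfd2 and Mthfd1l carry that carbon on to formate, Aldh1l2 oxidises it to carbon dioxide, and the trifunctional cytosolic enzyme Mthfd1 takes formate back onto folate, where it feeds purine and thymidylate synthesis. The pathway is known for its high activity in dividing cells, and several of its genes are known targets of the transcription factors ATF4 and MYC.

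The serine synthesis genes were higher on the CSF1 array, by 1.5-fold to 1.8-fold on the brightest probe set of each. Shmt2 was 1.95-fold higher on its brightest probe set, but its other probe sets did not agree on that size. Mthfd1 and Mthfd2 were higher by less than 1.3-fold, Shmt1 and Mthfd1l were within 1.1-fold of the control, and Aldh1l2 was below the background level on both arrays. That level, 159.9 units, was the value that 90% of readings of genes restricted to other tissues did not exceed, and a gene counted as measured when its brightest probe set exceeded it on at least 1 array. Of the 8 measured member genes, 7 had a log2 ratio of CSF1 over control above 0, against 50.5% of all 10486 measured genes. Of the same 8 genes, 4 were at least 1.5-fold higher, against 5.29% of all measured genes, and 0 were at least 1.5-fold lower, against 4.77%. None of the 8 reached 2-fold higher, a threshold that 0.782% of measured genes passed. The median log2 ratio was 0.48 over the 8 member genes and 0.00 over all measured genes. Among the 5326 genes whose signal lay within the members' span of 193.9 to 1444 units on both arrays, 5.46% were at least 1.5-fold higher and 51.6% were above 0.

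**Figure D1:**
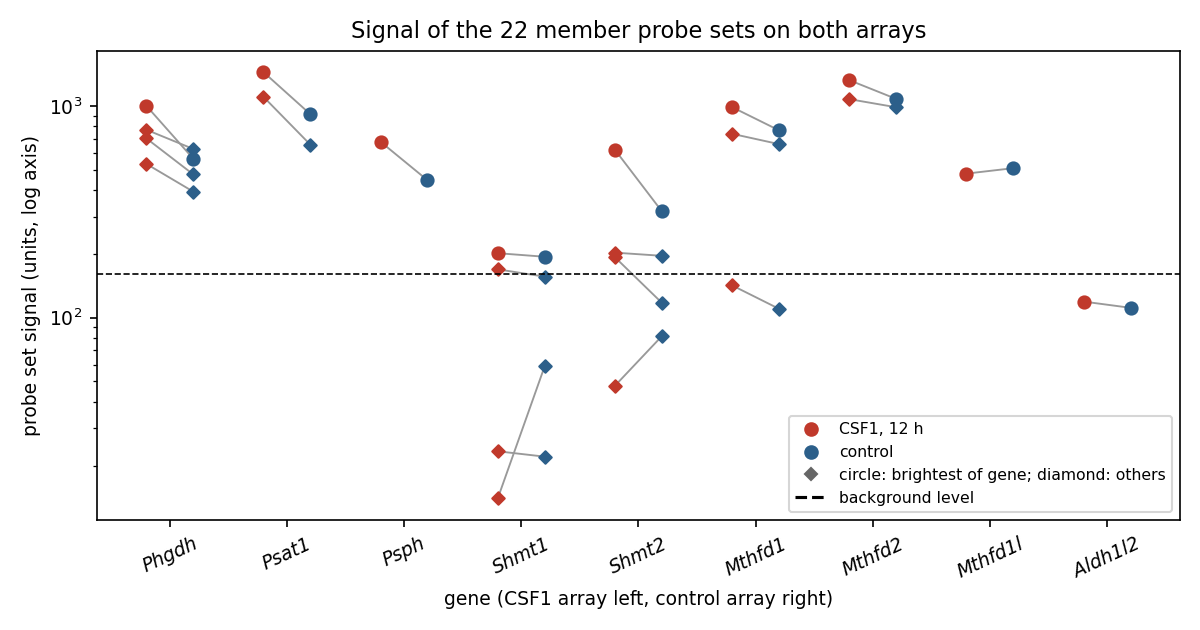
Signal of each of the 22 member probe sets in units on a log axis, with the CSF1 array (red) left of the control array (blue) and a line joining the same probe set; circles mark the brightest probe set of a gene and diamonds the others. All Phgdh, Psat1 and Psph probe sets lie higher on the CSF1 array, whereas Mthfd1l lies slightly lower and Aldh1l2 stays under the dashed background level of 159.9 units on both arrays.

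Phgdh, whose product commits phosphoglycerate to serine, had 4 probe sets, each above background on both arrays. The brightest, 1454714_x_at, read 1002 units on the CSF1 array and 564.1 units on the control array, 1.78-fold higher. The second, 1426658_x_at, read 771.6 units with CSF1 and 626.2 units in the control, 1.23-fold higher. The other two agreed in direction, and their sizes lay between those of this pair. Probe set 1437621_x_at read 703.0 units with CSF1 and 475.2 units in the control, and 1456584_x_at read 532.5 units with CSF1 and 393.9 units in the control. The mean log2 ratio of the 4 was 0.53 ± 0.22 (SD between probe sets, which covers neither cultures nor animals), or 1.45-fold. All 4 names end in _x_at, the mark of probes that can also match transcripts of other genes. A further pair of probe sets names Phgdh together with a second gene, Gm8096 or Gm6756, and was left out by the rule. The probe set shared with Gm8096 read 242.8 units with CSF1 and 224.9 units in the control, and the probe set shared with Gm6756 read 699.3 units with CSF1 and 554.9 units in the control. With them the mean over 6 probe sets was 0.43 ± 0.25, so the direction was that of the other probe sets and the size was smaller.

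Psat1, the aminotransferase of the pathway's middle step, gave the closest agreement between probe sets among the members with several above background. Probe set 1451064_a_at read 1444 units on the CSF1 array and 913.7 units on the control array, 1.58-fold higher. Probe set 1454607_s_at read 1104 units with CSF1 and 655.9 units in the control, 1.68-fold higher. Their mean log2 ratio was 0.71 ± 0.06 (SD between 2 probe sets), and both lay past 1.5-fold. Psph, which releases free serine in the last step, had 1 probe set, 1415673_at, with 676.6 units on the CSF1 array and 445.6 units on the control array. It was 1.52-fold higher, just past the 1.5-fold threshold, and has no second probe set to set beside it; its name carries no such mark. In rank from the highest ratio among the 10486 measured genes, Phgdh stood at 189, Psat1 at 394 and Psph at 513 on their brightest probe sets.

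Shmt2, the mitochondrial serine hydroxymethyltransferase, had the highest ratio of the members and the widest disagreement between probe sets. Its brightest probe set, 1455084_x_at, read 620.0 units on the CSF1 array and 317.9 units on the control array, 1.95-fold higher and rank 98 of all measured genes. The next, 1455985_x_at, read 202.7 units with CSF1 and 195.9 units in the control, 1.04-fold higher. Probe set 1426423_at, the only one of Shmt2 whose name does not end in _x_at, read 192.8 units with CSF1 and 117.5 units in the control. Since its control value lay below background, its fold is a lower bound of at least 1.21-fold higher. The fourth, 1434204_x_at, was below background on both arrays, with 47.7 units with CSF1 and 81.7 units in the control. The mean log2 ratio of the pair above background on both arrays was 0.51 ± 0.65 (SD), so the spread between them exceeded their mean. Shmt1, the cytosolic enzyme, read 201.5 units on the CSF1 array and 193.9 units on the control array on its brightest probe set, 1.04-fold higher. Its second probe set read 169.0 units with CSF1 and 156.2 units in the control, at the edge of the background level, and the other two were below it on both arrays. The Shmt1 signal thus stood close to the background level on both arrays, which limits what its ratio can show.

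Among the genes that pass the folate-bound carbon on, the ratios were smaller. Mthfd2, the mitochondrial dehydrogenase and cyclohydrolase, read 1322 units on the CSF1 array and 1078 units on the control array on its brightest probe set, and 1076 units with CSF1 and 984.8 units in the control on its other one. The mean log2 ratio of its 2 probe sets was 0.21 ± 0.12 (SD), or 1.16-fold higher. Mthfd1 read 986.1 units with CSF1 and 766.3 units in the control on its brightest probe set, and 737.9 units with CSF1 and 659.6 units in the control on its second, with a mean log2 ratio of 0.26 ± 0.14 (SD, 2 probe sets). Its remaining probe set was below background, at 142.0 units with CSF1 and 110.1 units in the control. For both genes the 2 probe sets had the same direction, and both means were smaller than 0.28, the pooled SD between probe sets of a gene over 3601 genes. That SD describes single probe sets, not means of 2, and covers neither cultures nor animals. Mthfd1l, the mitochondrial formyl-tetrahydrofolate synthetase that releases formate, read 478.7 units with CSF1 and 508.0 units in the control on its 1 probe set, 1.06-fold lower. Aldh1l2, the mitochondrial formyl-tetrahydrofolate dehydrogenase, read 119.1 units with CSF1 and 111.3 units in the control on its 1 probe set. As neither value exceeded the background level, no fold is given for it.

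**Figure D2:**
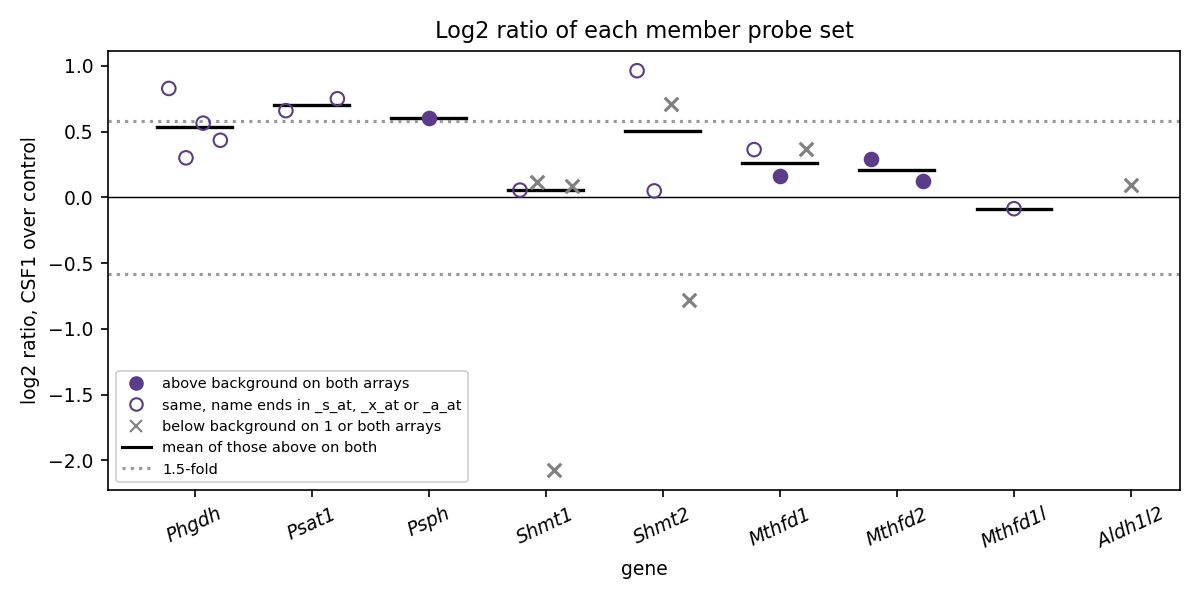
Log2 ratio of CSF1 over control for each member probe set; filled circles are probe sets above background on both arrays, open circles the same where the name ends in _s_at, _x_at or _a_at, crosses those below background on 1 or both arrays (unfloored values), black bars the mean of those above on both, and dotted lines 1.5-fold. The Psat1 probe sets lie together at 0.66 and 0.75, while the Shmt2 probe sets above background are split between 0.96 and 0.05.

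Over probe sets instead of genes, 15 of the 22 were above background on both arrays, 2 on the CSF1 array only and 5 on neither. Of these 15, 14 had a log2 ratio above 0, against 49.4% of the 14769 such probe sets with 1 gene name, and 5 were at least 1.5-fold higher, against 4.81%. Their median log2 ratio was 0.36, against 0.00 over all such probe sets. Probe sets of 1 gene share their transcript and are not replicates. The 8 named _s_at or _x_at, endings that mark probes able to match transcripts of other genes, had a median of 0.50, and 3 of them were past 1.5-fold. The 3 named _a_at, an ending for alternative transcripts of the same gene, had a median of 0.36, and 1 of them, the brightest of Psat1, was past 1.5-fold. The 4 with neither ending, from Psph, Mthfd1 and Mthfd2, had a median of 0.23, and 1 of them, that of Psph, was past 1.5-fold. When the probe sets of a gene above background on both arrays were averaged, 2 member genes instead of 4 were at least 1.5-fold higher, namely Psat1 and Psph, with Phgdh at 1.45-fold and Shmt2 at 1.42-fold.

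**Figure D3:**
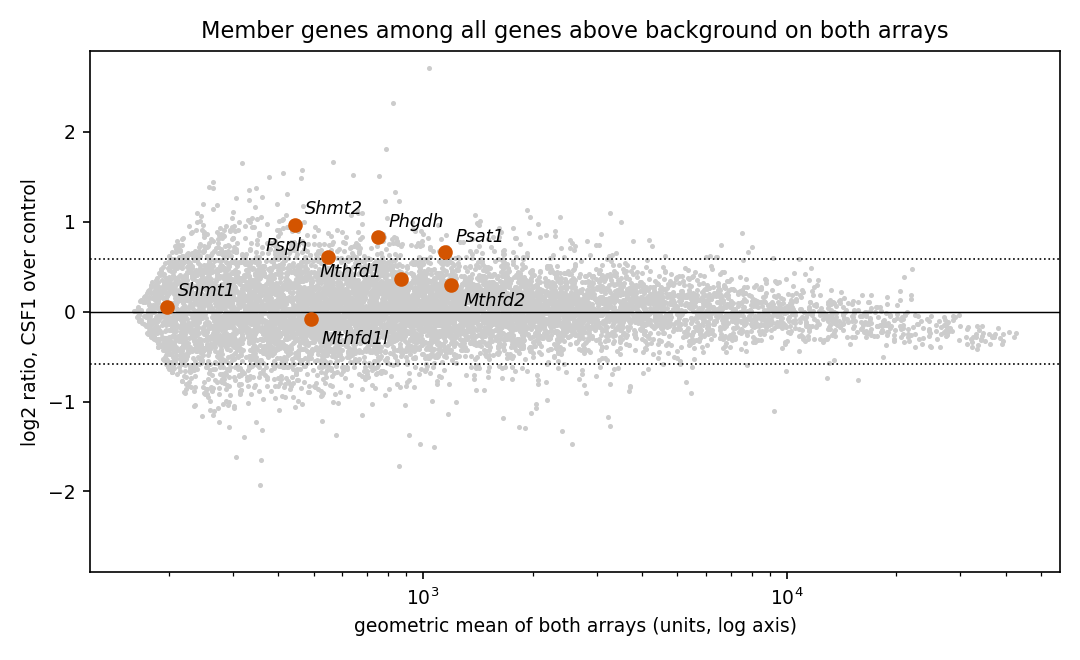
Log2 ratio of CSF1 over control against the geometric mean signal in units (log axis) of all genes above background on both arrays, each on its brightest probe set (grey), with the 8 measured member genes in orange and 1.5-fold as dotted lines. Shmt2, Phgdh, Psat1 and Psph lie above the upper dotted line, at 0.96, 0.83, 0.66 and 0.60, and Mthfd1l lies at -0.09.

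The windows around the transcription starts of the 4 genes past 1.5-fold are shown beside those of Shmt1 and Mthfd1l, the cytosolic counterpart of Shmt2 and the member below 0. They run 5′ to 3′ on the gene's strand from 250 bases before the start to 50 after it, are taken from RefSeq on GRCm38.p6, and carry in capitals every match to GGGCGG (the GC box), CCAAT or TATAAA on either strand; the CCAAT and TATAAA matches of Phgdh overlap by 1 base. RefSeq windows were matched for 8 of the 9 members, with 2 for Psat1, of which the first is shown.
Phgdh, chr3:98339920-98340219, minus strand: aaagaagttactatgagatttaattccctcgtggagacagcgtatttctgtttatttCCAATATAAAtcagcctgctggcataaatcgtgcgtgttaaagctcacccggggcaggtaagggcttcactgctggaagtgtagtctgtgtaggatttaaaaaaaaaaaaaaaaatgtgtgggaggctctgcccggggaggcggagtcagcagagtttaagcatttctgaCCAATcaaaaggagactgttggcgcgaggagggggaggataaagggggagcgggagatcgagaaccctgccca
Psat1, chr19:15925010-15925309, minus strand: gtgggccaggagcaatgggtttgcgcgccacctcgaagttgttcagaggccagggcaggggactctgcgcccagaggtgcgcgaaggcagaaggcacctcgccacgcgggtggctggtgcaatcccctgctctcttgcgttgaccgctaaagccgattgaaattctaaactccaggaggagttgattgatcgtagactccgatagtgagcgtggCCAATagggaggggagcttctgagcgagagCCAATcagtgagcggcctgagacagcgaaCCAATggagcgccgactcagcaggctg
Psph, chr5:129787204-129787503, minus strand: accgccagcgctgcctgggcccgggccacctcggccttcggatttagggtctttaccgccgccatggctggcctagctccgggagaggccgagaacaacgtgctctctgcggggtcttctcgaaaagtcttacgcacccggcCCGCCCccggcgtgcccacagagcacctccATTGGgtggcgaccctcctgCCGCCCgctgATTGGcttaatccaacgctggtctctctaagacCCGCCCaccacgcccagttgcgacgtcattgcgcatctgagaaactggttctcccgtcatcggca
Shmt2, chr10:127522395-127522694, minus strand: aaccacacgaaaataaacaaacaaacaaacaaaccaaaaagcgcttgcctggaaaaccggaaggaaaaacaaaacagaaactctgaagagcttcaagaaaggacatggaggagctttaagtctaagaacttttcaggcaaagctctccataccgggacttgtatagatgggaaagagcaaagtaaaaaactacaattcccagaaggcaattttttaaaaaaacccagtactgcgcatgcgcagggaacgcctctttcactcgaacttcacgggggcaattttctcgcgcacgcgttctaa
Shmt1, chr11:60811216-60811515, minus strand: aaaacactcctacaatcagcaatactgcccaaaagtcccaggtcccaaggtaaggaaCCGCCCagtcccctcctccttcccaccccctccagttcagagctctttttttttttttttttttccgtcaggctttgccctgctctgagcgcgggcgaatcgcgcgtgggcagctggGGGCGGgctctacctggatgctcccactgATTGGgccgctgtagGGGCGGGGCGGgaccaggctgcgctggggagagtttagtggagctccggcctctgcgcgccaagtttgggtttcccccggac
Mthfd1l, chr10:3972825-3973124, plus strand: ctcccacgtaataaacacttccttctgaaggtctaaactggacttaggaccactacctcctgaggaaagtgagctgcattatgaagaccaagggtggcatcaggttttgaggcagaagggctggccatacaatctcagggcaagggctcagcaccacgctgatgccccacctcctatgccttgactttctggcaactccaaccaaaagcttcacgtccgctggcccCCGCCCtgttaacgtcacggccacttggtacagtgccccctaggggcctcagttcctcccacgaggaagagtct

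In these letters, CCAAT stood in the windows of Phgdh, Psat1, Psph and Shmt1, GGGCGG in those of Psph, Shmt1 and Mthfd1l, and Shmt2 had none of the 3. Over all 9 member windows, 6 held CCAAT, against 37.41% of 32851 RefSeq windows of the same length, 5 held GGGCGG, against 35.66%, and 1 held TATAAA, against 13.62%. TGATGNAA, the core of the element that ATF4 binds, was in 0 of the 9 windows and in 3.97% of all windows, and CACGTG, the E-box that MYC binds, was in 0 of 9 and in 7.15%. Both strands were searched for each, and a missing match says only that these letters are not in this window. Because the Shmt2 window held none of these motifs, none could be common to Phgdh, Psat1, Psph and Shmt2, and no conclusion is drawn from that. The second Psat1 window, not shown, held 2 matches to GGGCGG and none to CCAAT.

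The rest of the folate cycle was not higher as a group. Of 18 further folate enzymes and carriers, 13 were measured, 8 were above 0 and 1 was at least 1.5-fold higher, with a median log2 ratio of 0.06. That gene was Folr2, a folate receptor of macrophages, with 1460 units on the CSF1 array and 964.1 units on the control array, 1.51-fold higher. Slc19a1, the reduced folate carrier, read 510.2 units with CSF1 and 341.9 units in the control, 1.49-fold higher. Mtfmt, which uses formyl-tetrahydrofolate to formylate the mitochondrial initiator tRNA, read 298.2 units with CSF1 and 208.4 units in the control, 1.43-fold higher. Other carriers in the list stood near the control, with Slc25a32 at 0.10 and Slc46a1 at -0.08, and Folr1 was below background on both arrays. Mthfd2l, the paralogue of Mthfd2, had a mean log2 ratio of 0.24 ± 0.13 (SD, 3 probe sets), near that of Mthfd2. Mthfsd had the lowest ratio, -0.43. Thymidylate synthase Tyms, which uses methylene-tetrahydrofolate, was below background on both arrays, with 64.6 units with CSF1 and 72.2 units in the control.

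Purine synthesis, which consumes formyl-tetrahydrofolate at the steps of Gart and Atic, was close to the control on brightest probe sets. Its 9 measured genes lay within 1.5-fold, 7 were above 0, and the median log2 ratio was 0.09. Gart read 1027 units with CSF1 and 952.4 units in the control, and Atic read 2495 units with CSF1 and 2549 units in the control. The largest ratios of this list were -0.33 for Adssl1, 0.24 for Adsl and 0.18 for Paics, followed by 0.13 for Gmps. Of the mitochondrial glycine cleavage system, which breaks down the glycine that Shmt2 leaves, Gcsh read 4180 units with CSF1 and 3012 units in the control, 1.39-fold higher. Dld had a log2 ratio of 0.06 on its brightest probe set, and Gldc, the decarboxylase that starts the reaction, was below background on both arrays. The median of Gcsh and Dld was 0.27. It was -0.35 when all probe sets of a gene were averaged, including 1 of Dld that was not above background on both arrays. The methionine cycle list had a median of -0.10 over 4 measured genes. Of these, the cycle enzyme genes Mat2b and Ahcy stood at -0.07 and 0.05. Ahcyl1 and Ahcyl2, which resemble Ahcy but are not enzymes of the cycle, stood at -0.26 and -0.13. The mean of Ahcyl2 was -0.03 ± 0.15 (SD, 2 probe sets). Of the transsulphuration pair that turns serine and homocysteine into cysteine, neither Cbs nor Cth exceeded background.

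Serine carriers had a median log2 ratio of 0.01 over 7 measured genes, whose sign changed to -0.01 after quantile normalization. On brightest probe sets, the most displaced above background on both arrays were Sfxn1, the mitochondrial serine carrier, at 0.23, Slc1a5 at -0.19, Sfxn3 at 0.10 and Slc1a4 at -0.09. Averaged over 2 probe sets, Sfxn1 was at 0.07 ± 0.22 (SD). Slc38a1, at 0.01 on its brightest, averaged 0.32 ± 0.44 (SD, 2 probe sets), and Slc38a2, at 0.03, averaged 0.11 ± 0.47 (SD, 3 probe sets). Enzymes that use serine outside the folate cycle had a median of -0.02 over 5 measured genes, or -0.32 when all probe sets of a gene were averaged. The serine racemase Srr led at -0.31 on its brightest probe set (mean -0.74 ± 0.60, SD between 2 probe sets). The palmitoyltransferase subunit Sptlc2 stood at 0.16 (mean 0.01 ± 0.21, SD between 2 probe sets), with Ptdss1 at -0.08 and Ptdss2 at 0.08. Genes of glycolysis, the pathway that holds phosphoglycerate as an intermediate, were mostly lower. On brightest probe sets, 8 of 11 were below 0, the median was -0.22 and none passed 1.5-fold. Aldoa and Hk2 stood at -0.40 each, Gapdh at -0.30 and Tpi1 at -0.28. Averaged over probe sets, Gapdh was lower, at -0.54 ± 0.22 (SD, 3 probe sets). Its brightest probe set lies at the 3' end, and its ratio of 3' to 5' signal was 1.40 with CSF1 and 1.03 in the control. Whether that difference moved the Gapdh mean was not tested. Hk1, at 0.17 on its brightest, averaged -0.30 ± 0.66 (SD, 2 probe sets). Averages went the other way for Aldoa, at -0.19 ± 0.12 (SD, 5 probe sets), and Pfkp, at 0.16 ± 0.27 (SD, 2 probe sets). The glycolytic median was -0.11 after quantile normalization. It was 0.07 when the arrays were centred on the hybridisation spikes, where all measured genes had a median of 0.29.

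ATF4 and its target genes outside the members went both ways. Of 16 fixed genes, 15 were measured, 7 were above 0 and 8 below, and the median log2 ratio was -0.05. Atf4 itself read 6681 units on the CSF1 array and 6181 units on the control array, 1.08-fold higher. Asparagine synthetase Asns, the amino acid synthesis gene of this list, read 3010 units with CSF1 and 1975 units in the control, with a mean log2 ratio of 0.68 ± 0.10 (SD, 2 probe sets). Ddit3, which encodes the stress-induced transcription factor CHOP, read 5730 units with CSF1 and 3730 units in the control, 1.54-fold higher. These 2 genes were the ones at least 1.5-fold higher. In the other direction, Trib3, a pseudokinase induced by ATF4, had a log2 ratio of -0.43, and Cebpg had -0.41. Ddit4, an inhibitor of mTORC1 signalling, read 77.3 units with CSF1, below background, and 248.5 units in the control, at least 1.55-fold lower. Some genes of this list changed in size when their probe sets were averaged. Cebpb went from -0.09 on its brightest to -0.55 ± 0.65, and Slc7a11 from 0.00 to -0.54 ± 0.76 (SD, 2 probe sets each). Nupr1 went the other way, from 0.33 to 0.51 ± 0.25 (SD, 2 probe sets). The median of the list was -0.10 when all probe sets of a gene were averaged.

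**Figure D4:**
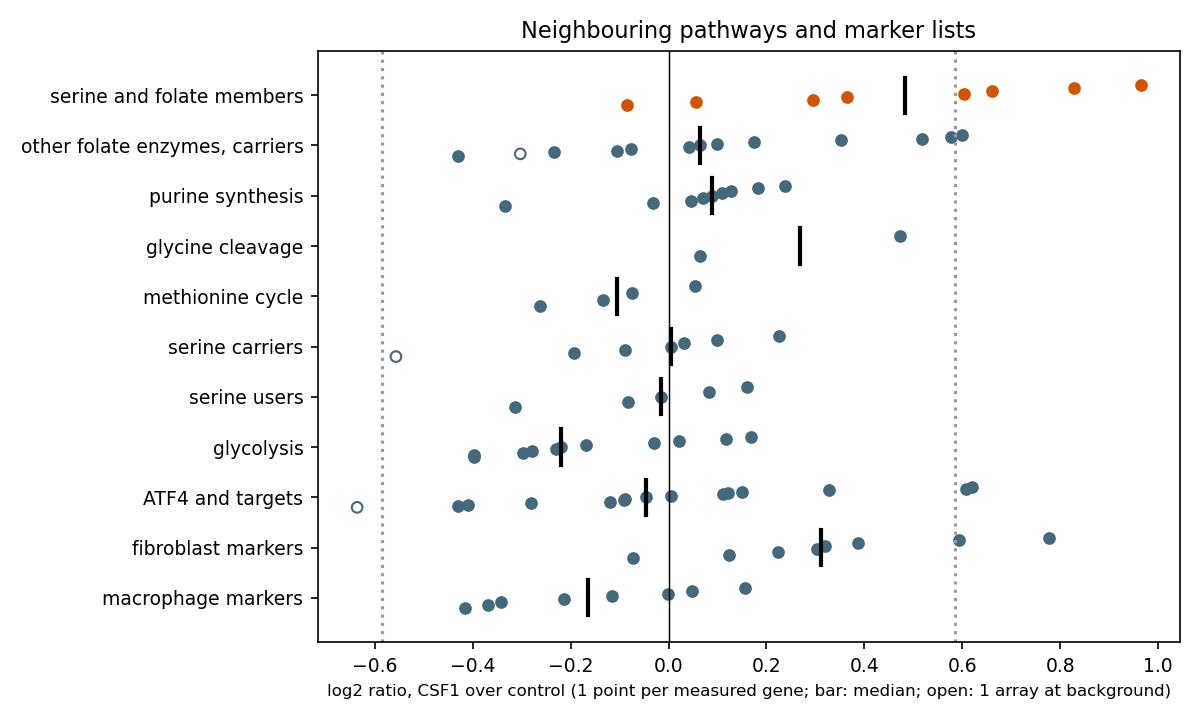
Log2 ratio of CSF1 over control, 1 point per measured gene on its brightest probe set, for the serine and folate members (orange), 8 neighbouring gene lists and 2 marker lists; bars are medians, open points have 1 array at the background level, and dotted lines mark 1.5-fold. The median is 0.48 for the members, 0.06 for other folate genes, -0.22 for glycolysis and 0.31 for fibroblast markers.

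Across the arrays, the macrophage label was borne out by high Csf1r, Adgre1, Cd68 and Lyz2 signal, from 10007 to 29561 units on the CSF1 array and from 10836 to 38569 units on the control array. Fibroblast markers were also present, and most were higher on the CSF1 array on their brightest probe sets. Of 8, 7 were above 0 and 2 were at least 1.5-fold higher (Pdgfrb and Dcn), with a median log2 ratio of 0.31. Their summed signal was 65717 units with CSF1 and 52101 units in the control. With all probe sets of a gene averaged, that median was 0.12 and the member median 0.30. Where 2 probe sets were above background on both arrays, the means differed in sign. They were -0.13 ± 0.63 for Pdgfra and -0.06 ± 0.26 for Col1a1, but 0.20 ± 0.03 for Col1a2 and 0.58 ± 0.27 for Col3a1 (SD). Macrophage markers had 6 of 8 below 0, a median of -0.16 and a summed signal of 132760 units with CSF1 and 156387 units in the control. The T and NK cell list had 6 of 7 measured markers below 0, a median of -0.08, a summed signal of 3754 units with CSF1 and 7588 units in the control, and Cd3e and Ncr1 below background. Its granule protease genes Gzma, at -1.72, and Gzmb, at -1.47, made up that gap, since the other markers summed to 1739 units with CSF1 and 1768 units in the control. In the remaining marker lists, 5 of 7 neutrophil, 2 of 5 B cell, 3 of 7 mesothelial and 3 of 8 mast cell or eosinophil genes were below background on both arrays. Of all 18194 genes with a probe set, 7708 were below it too, so these counts do not show that such cells were absent. In the neutrophil list Prtn3 read 88.03 units with CSF1 and 390.5 units in the control, at least 2.44-fold lower, while S100a8 read 5487 units with CSF1 and 4838 units in the control. The part of these cells in the serine and folate results was not tested, and in RNA of a whole culture fewer cells of a type and less RNA per cell cannot be told apart. Hybridisation spikes had a mean log2 ratio of -0.29 ± 0.13 (SD, 18 probe sets). Gapdh signal at the 3' end over that at the 5' end stood at 1.40 with CSF1 and 1.03 in the control. For the actin gene Actb the same measure differed little between the arrays, at 1.38 with CSF1 and 1.35 in the control. What part the spike and Gapdh differences had in these results was not tested either.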

How the data were processed

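RNA of 1 CSF1 sample and 1 control sample was measured on Affymetrix Mouse Genome 430 2.0 arrays, with groups as the labels give them. The deposited intensity values are linear probe set signals that the authors produced with GeneSpring 6.2, per the labels' design text, while how probes were summarized is not stated there. Of 45101 probe sets, 34958 carried 1 gene symbol, 932 several and 9211 none; by Entrez ID, 204 of the first had no match in the RefSeq table and 0 symbols differed.

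Values were moved to log2 without further scaling. Of the probe sets with 1 symbol, the one brightest on the mean of both log2 values stood for its gene. The background level was the 90th percentile, over both arrays, of 75 probe sets of 44 genes of other tissues, out of 49 listed; 2 of these probe sets exceeded 300 units, so not all were silent. Lower values were raised to that level, which turns a fold into a lower bound where 1 array is below it. Of 18194 genes, 10486 were measured, 9220 of them on both arrays. With 1 array per group no p-value or standard error exists, and precision is limited by the number of arrays. Members, lists and thresholds were chosen with earlier results of these data known. All members are named; of each other list, up to 4 genes with the largest absolute ratio above background on both arrays and those past 1.5-fold, while Atf4, Gart, Atic, Mthfd2l, Tyms, Gldc, Dld, Cbs, Cth and the markers were named for their role. Hk1, Pfkp, Slc38a1, Slc38a2, Cebpb, Slc7a11 and Nupr1 were named for the means of their probe sets. GC box, CCAAT and TATAAA were added after the other motifs had been searched. The procedure was tested on simulated data that held 2-fold changes in bright genes. That test does not cover smaller changes, dim genes or genes whose probe sets respond differently. The alternatives were the stricter or no background level, quantile normalization, loess (span 0.3), centring on the median or the spikes, averaging of probe sets, probe sets without the endings _s_at, _x_at or _a_at, or without the first 2 of these, genes above background on both arrays, and 2-fold. Python 3.11.15, numpy 2.4.6, pandas 2.3.3, statsmodels 0.14.6 and matplotlib 3.10.9 were used.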

Additional observations from a re-analysis of the deposited data

How the results depend on the processing

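Centring on the hybridisation spikes gave a median log2 ratio of 0.78 over member genes, 0.66 over member probe sets and 0.29 over all measured genes; relative to the last, the member genes stood at 0.49, against 0.48 in the values as deposited. It put 6 member genes at least 1.5-fold higher, with Phgdh at 1.12 and Shmt2 at 1.26, past 2-fold, and 1810 of all measured genes at least 1.5-fold higher, against 555, and leaving out the background level put 2977 of 18194 genes there, a setting that both adds dim genes and removes the floor from ratios. Quantile normalization moved lists of bright genes relative to all genes, glycolysis to -0.13 from -0.22 and macrophage markers to -0.10 from -0.17. The 4 member genes at least 1.5-fold higher became 2 when all probe sets of a gene were averaged, 2 when those above background on both arrays were averaged (an alternative chosen after seeing the data), 1 among probe sets with none of the endings _s_at, _x_at or _a_at, where 5 members were measured, 2 when _a_at probe sets were kept, where 7 were measured (also chosen after seeing the data), and 0 at 2-fold. Shmt2 was at 0.21 as the mean of all its probe sets and 0.27, a lower bound, on the one without such an ending, and Phgdh at 0.53 as the mean of its 4. The count remained 4 under the stricter background level, no background level, quantile normalization, loess, centring on the median and restriction to genes above background on both arrays, and the median over member genes stayed between 0.27 and 0.48 in the alternatives other than spike centring. No paired analysis was possible because each group has 1 array.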
